A study of Mus musculus with 9 samples.

Results

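Interleukins are secreted signals that cells of the immune system, the skin and the nervous system use to talk to each other. Many act through receptors built from a ligand-binding chain and a shared signalling chain. Transcripts of these ligands and receptors were followed in 3 tissues of the pain pathway: punches of hind paw skin, lumbar dorsal root ganglia (DRG, L3 to L5) with the cell bodies of sensory neurons, and the lumbar spinal cord, which the labels call spine. The members were chosen by symbol: every gene whose symbol starts with Il and a digit, ligands, receptors, the antagonist Il1rn and the binding protein Il18bp included. That gave 85 of 22609 genes. The enzyme gene Il4i1 is among them by its name only. Each tissue had 3 libraries, numbered 1 to 3 as the labels number them, and all came from male C57 mice aged 8 to 12 weeks. All mice had received paclitaxel, a chemotherapy drug that stabilises microtubules and can cause painful neuropathy, in 2 intraperitoneal injections of 2 mg/kg. A lymphotoxin-beta receptor antagonist was given to all of them as well, with 15 µg into the hind paw and 15 µg intrathecally, on days 1 and 4 by the sample titles. The series text places the antagonist between both paclitaxel injections and again 1 day later. Collection followed the last paclitaxel injection by 6 days. Every comparison below is therefore between tissues of treated mice. Mice without paclitaxel or given control IgG are not analysed here, and no effect of either agent was tested. Whether each library stands for its own mouse or for a pool is not said in the labels, so a p-value here reflects only how far these libraries spread, which may be technical.

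The interleukin-1 family holds alarm signals of barrier tissue. Interleukin-1 alpha and beta and the interleukin-36 group start inflammation in skin, interleukin-18 and interleukin-33 alert lymphoid cells, and each branch has its own brake, a receptor antagonist, a decoy receptor or a soluble binding protein. Other families signal through shared chains: gp130 (Il6st) for interleukin-6, interleukin-11 and interleukin-27, the common gamma chain (Il2rg) for the interleukin-2, interleukin-4, interleukin-7 and interleukin-15 branches, and Il10rb for interleukin-10, interleukin-22 and the lambda interferons. In sensory ganglia interleukin-31 and interleukin-4 receptors are known for their part in itch.

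Levels are given as CPM, read counts scaled to library size with TMM factors. The libraries held 15537545 to 23229724 assigned reads, so 3 reads, taken as the floor, correspond to 0.134 to 0.185 CPM. Means over the 3 libraries of a tissue are given ± SD (n = 3). Differences are log2 fold changes ± their standard error, tested with edgeR (quasi-likelihood). FDR stands for the Benjamini-Hochberg adjusted p over all genes tested, and the words higher, lower and called are kept for an FDR under 0.05. The tissues carried their own markers. Keratinocyte markers (6 of 6 counted) summed to 30668 to 47791 CPM in paw, 13.4 to 25.4 in DRG and 29.1 to 32.1 in spinal cord. Sensory neuron markers (6 of 6) summed to 6.05 to 7.78, 4493 to 5281 and 80.1 to 95.5 CPM in that order, and astrocyte markers (4 of 4) to 467 to 632, 51.4 to 55.6 and 3452 to 3773 CPM. Some libraries stood apart. Skeletal muscle markers summed to 589, 897 and 31.9 CPM and marrow neutrophil markers to 204, 466 and 175 CPM in DRG 1 to 3. Marrow neutrophil markers summed to 813, 230.1 and 272 CPM and fibroblast markers to 435, 347 and 1042 CPM in spinal cord 1 to 3. In such bulk tissue, fewer cells of a type and less RNA per cell cannot be told apart.

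Of the 85 members, 10 had no read in any library, 8 had 1 to 10 reads in all, and 53 passed the filter on low counts. The filter lets a gene in through a single tissue, and 11 of the 53 had 10 or fewer reads over at least 1 tissue, so the tested members are not a neutral sample of the family. In paw 43 members reached a mean of 1 CPM, in DRG 30 and in spinal cord 31. A level of 1 CPM or more was met in all 3 tissues by 25 members, in paw alone by 12, in DRG alone by 1 (Il31ra) and in spinal cord alone by 2 (Il12rb1 and Il20ra). Paw against DRG had 38 of 53 members called (30 higher and 8 lower in paw), where 80.5% of all 16091 tested genes were called, 39.7% higher and 40.8% lower. Paw against spinal cord had 41 called (34 higher and 7 lower), against 81.6% of all tested genes, 39.9% higher and 41.7% lower. DRG against spinal cord had 31 called (16 higher and 15 lower), against 59.6% of all tested genes, 29.0% higher and 30.6% lower. The shares of members called, 71.7%, 77.4% and 58.5% in that order, are given as a description, and those in paw against spinal cord and in DRG against spinal cord are near the background. Over the tested members the median log2 fold change was 1.64 in paw against DRG, 1.68 in paw against spinal cord and 0.06 in DRG against spinal cord, where that over all tested genes was −0.02, −0.03 and −0.02. With DRG 1 and 2 both left out, 4 members were called lower in paw than in DRG, and without the low-count filter 12.

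**Figure D1:**
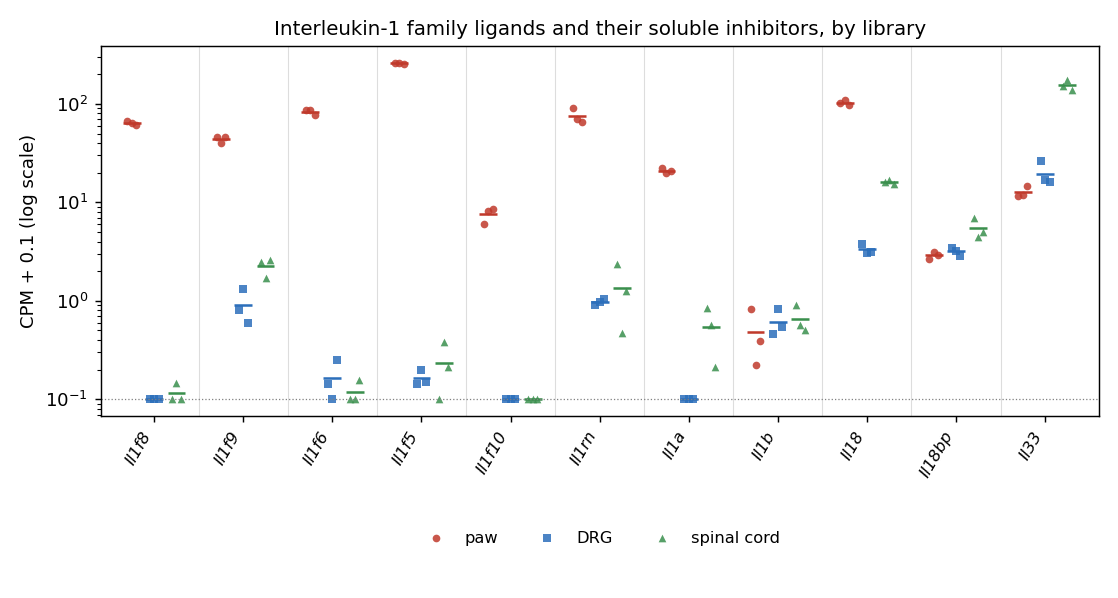
Levels of the interleukin-1 family ligands and their soluble inhibitors in each library, as CPM + 0.1 on a log axis, with paw, DRG and spinal cord from left to right for each gene and a bar at the mean of the 3 libraries. The first 6 genes follow their order on chromosome 2. Il1f8, Il1f6, Il1f5 and Il1f10 lie near the dotted line of 0 CPM in DRG and spinal cord, Il1b is low in all 3 tissues, and Il33 is highest in spinal cord.

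The interleukin-36 group marked the paw. Il1f6, Il1f8 and Il1f9 encode its agonists (the interleukin-36 alpha, beta and gamma chains), Il1f5 encodes the antagonist of their receptor, and Il1f10 encodes interleukin-38, a relative with antagonist activity. Il1f5 had 261, 257 and 252 CPM in paw, with 1, 2 and 1 reads in DRG and 0, 6 and 2 reads in spinal cord. Il1f6 had 85.6, 87.5 and 76.7 CPM in paw, with 1, 0 and 3 reads in DRG and 0, 0 and 1 reads in spinal cord. Il1f8 had 67.6, 63.2 and 60.8 CPM in paw, with 0 reads in all 3 DRG libraries and 0, 1 and 0 reads in spinal cord. All paw libraries lay far above every DRG and spinal cord library for these genes. Il1f5 was higher in paw by 11.85 ± 0.30 (FDR 2.03e-11) than in DRG and by 10.82 ± 0.28 (FDR 1.99e-11) than in spinal cord. Il1f6 was higher in paw by 10.22 ± 0.30 (FDR 4.94e-11) than in DRG, and its ratio of paw to spinal cord, where a single read was counted, was 4895 with a 95% counting interval of 878 to 193400.0. Il1f8 was at least 1347-fold higher in paw than in DRG, and its ratio of paw to spinal cord was 3758 with a 95% counting interval of 674 to 148486. Il1f10 had 5.87, 8.08 and 8.42 CPM in paw and no read in DRG or spinal cord, so it was at least 157-fold higher in paw than in DRG and at least 146-fold higher than in spinal cord. These bounds and intervals cover counting error only. The low side rests on few reads: without DRG 3 the Il1f6 difference between paw and DRG was 11.45, and without spinal cord 2 the Il1f5 difference between paw and spinal cord was 12.08.

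Il1f9 was the only gene of the interleukin-36 group with a mean over 1 CPM outside the paw. It had 45.9, 39.7 and 46 CPM in paw, 0.715, 1.21 and 0.495 CPM in DRG and 2.35, 1.59 and 2.47 CPM in spinal cord. The tissues did not overlap. Its level was higher in paw by 5.76 ± 0.24 (FDR 9.53e-10) than in DRG and by 4.37 ± 0.22 (FDR 3.44e-09) than in spinal cord, and lower in DRG than in spinal cord (−1.39 ± 0.28, FDR 0.00132). With spinal cord 1 and 3 both left out, the last call was lost (−0.96, FDR 0.0605). Scaled to exon length, which allows genes to be compared, the paw level per kilobase of exon was 94.3 CPM for Il1f6, 57.2 for the antagonist Il1f5, 52.5 for Il1f8, 26.6 for Il1f9 and 13.9 for Il1f10.

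Il1rn, the antagonist of the interleukin-1 receptor, and Il1a, interleukin-1 alpha, which keratinocytes store, were both highest in paw. Il1rn had 91.1, 69.4 and 64.8 CPM in paw, 0.804, 0.869 and 0.941 CPM in DRG and 2.25, 0.373 and 1.15 CPM in spinal cord. This gene was higher in paw by 6.42 ± 0.40 (FDR 2.17e-07) than in DRG and by 5.91 ± 0.38 (FDR 2.92e-07) than in spinal cord. Il1a had 22.3, 19.8 and 20.7 CPM in paw, with 0 reads in all 3 DRG libraries and 15, 10 and 2 reads in spinal cord. Il1a was at least 442-fold higher in paw than in DRG, higher in paw by 5.50 ± 0.34 (FDR 2.28e-07) than in spinal cord, and at least 9.68-fold lower in DRG than in spinal cord. The paw libraries of both genes lay above all others. Per kilobase of exon the paw level of Il1rn was 13.6 CPM and that of Il1a 10.6 CPM. The spinal cord level of Il1rn was highest in library 1, the one with the highest marrow neutrophil sum, and without that library the difference between paw and spinal cord was 6.69. Il1rn was not called between DRG and spinal cord (−0.52 ± 0.52, FDR 0.421), but was called without spinal cord 2 (−0.99, FDR 0.028). The direction turned without spinal cord 1 (0.26, FDR 0.64) and without spinal cord 1 and 3 (1.22, FDR 0.0626). Whether neutrophil RNA has a part in these values was not tested.

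Il1b, the secreted interleukin-1 beta of activated myeloid cells, did not follow the group. It had 12, 2 and 5 reads in paw, 8, 15 and 9 reads in DRG and 16, 10 and 7 reads in spinal cord, with overlap between all tissues. It was called in no comparison (FDR 0.519 for paw against DRG, 0.38 for paw against spinal cord and 0.836 for DRG against spinal cord). At this depth its means of 0.379 ± 0.306 CPM in paw, 0.509 ± 0.191 in DRG and 0.556 ± 0.214 in spinal cord leave small differences undetectable.

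In the RefSeq gene order of GRCm38, Il1f8, Il1f9, Il1f6, Il1f5, Il1f10 and Il1rn follow each other on chromosome 2 with no other protein-coding gene between them, and Il1a and Il1b neighbour each other further along the same chromosome. The first 6 were all called higher in paw than in DRG and in spinal cord, where 39.7% and 39.9% of all tested genes were. Il1f8, Il1f6, Il1f5 and Il1f10 had few or no reads in DRG and spinal cord and passed the filter through paw alone. The count is therefore a description only. The neighbours Il1a and Il1b differed, with Il1a called and Il1b not. The promoters of 4 of these paw genes are shown beside those of Il33, highest in spinal cord, and Il31ra, highest in DRG. They are examples from the 3 tissue patterns and do not represent them. Each runs from 250 bases before to 50 after the first start that RefSeq lists (build GRCm38.p6), 5′ to 3′ on the gene's strand, and was matched by symbol for 68 of 85 members. Capitals mark matches, on either strand, to the AP-1 motif TGANTCA or the TATA motif TATAAA, and no match to the NF-kappaB consensus was found in these windows.
Il1f8, chr2:24152922-24153221 (+): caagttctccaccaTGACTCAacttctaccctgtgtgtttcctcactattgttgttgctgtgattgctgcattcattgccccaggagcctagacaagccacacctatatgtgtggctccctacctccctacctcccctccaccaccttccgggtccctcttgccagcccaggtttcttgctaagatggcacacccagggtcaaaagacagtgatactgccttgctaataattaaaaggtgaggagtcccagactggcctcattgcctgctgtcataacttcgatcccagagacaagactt
Il1f5, chr2:24276704-24277003 (+): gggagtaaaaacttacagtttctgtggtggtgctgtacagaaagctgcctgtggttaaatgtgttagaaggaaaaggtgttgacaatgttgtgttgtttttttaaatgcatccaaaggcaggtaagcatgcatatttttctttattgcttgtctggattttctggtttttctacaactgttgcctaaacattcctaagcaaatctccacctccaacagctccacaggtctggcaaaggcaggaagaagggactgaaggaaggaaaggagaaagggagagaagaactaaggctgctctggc
Il1rn, chr2:24336610-24336909 (+): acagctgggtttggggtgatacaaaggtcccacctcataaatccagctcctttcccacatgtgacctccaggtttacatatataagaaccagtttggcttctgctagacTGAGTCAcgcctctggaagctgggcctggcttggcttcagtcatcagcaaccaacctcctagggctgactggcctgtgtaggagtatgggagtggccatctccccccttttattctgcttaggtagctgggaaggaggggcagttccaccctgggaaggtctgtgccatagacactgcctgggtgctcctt
Il1a, chr2:129309923-129310222 (-): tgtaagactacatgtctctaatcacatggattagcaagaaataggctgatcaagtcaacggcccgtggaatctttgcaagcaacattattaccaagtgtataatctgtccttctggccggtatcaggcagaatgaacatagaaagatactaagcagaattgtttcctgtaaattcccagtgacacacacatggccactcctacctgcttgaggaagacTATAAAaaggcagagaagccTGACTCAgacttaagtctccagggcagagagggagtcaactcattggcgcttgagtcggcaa
Il33, chr19:29924863-29925162 (+): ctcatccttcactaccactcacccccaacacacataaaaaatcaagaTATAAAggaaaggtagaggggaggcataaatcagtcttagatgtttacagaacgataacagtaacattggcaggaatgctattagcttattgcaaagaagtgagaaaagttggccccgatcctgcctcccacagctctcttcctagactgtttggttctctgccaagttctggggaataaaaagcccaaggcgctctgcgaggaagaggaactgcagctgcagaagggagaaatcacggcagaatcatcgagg
Il31ra, chr13:112580613-112580912 (-): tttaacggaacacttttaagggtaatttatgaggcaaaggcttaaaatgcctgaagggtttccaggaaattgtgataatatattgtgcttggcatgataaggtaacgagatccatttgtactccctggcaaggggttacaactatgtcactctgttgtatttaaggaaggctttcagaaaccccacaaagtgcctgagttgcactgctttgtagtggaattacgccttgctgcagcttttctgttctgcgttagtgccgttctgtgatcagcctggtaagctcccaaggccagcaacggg
The AP-1 match began 12 bases before the start in Il1a, 141 before it in Il1rn and 236 before it in Il1f8. The TATA match began 32 bases before the start in Il1a and 203 before it in Il33. Of all 32851 promoter windows of this length, 7.81% held an AP-1 match, 8.46% an NF-kappaB match and 13.6% a TATA match. Among the 68 member promoters the numbers were 12, 6 and 12. Il1f9 and Il1f10 of the same run, also called higher in paw, had no AP-1 match, nor did the paw genes Il1r1, Il1r2 and Il20rb. Il22ra1, highest in paw, held an AP-1 match, as did Il16, highest in DRG, and Il20ra, highest in spinal cord. Whether a motif goes with a tissue was not tested. A match is a run of letters and not a shown binding site.

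Il18 and Il33 differed in the tissue where they were highest, Il18 in paw and Il33 in spinal cord. Il18, an alarm cytokine that caspase-1 releases from its precursor, had 102, 109 and 96.6 CPM in paw, 3.71, 2.99 and 3.02 CPM in DRG and 16, 16.7 and 15.4 CPM in spinal cord. The 3 tissues formed separate levels without overlap. Expression was higher in paw by 4.98 ± 0.12 (FDR 1.5e-11) than in DRG and by 2.67 ± 0.10 (FDR 3.68e-10) than in spinal cord, and lower in DRG than in spinal cord (−2.30 ± 0.12, FDR 1.8e-08). Its secreted inhibitor Il18bp had another order, 2.81 ± 0.226 CPM in paw, 3.09 ± 0.293 in DRG and 5.36 ± 1.28 in spinal cord. Il18bp was lower in paw and in DRG than in spinal cord (−0.93 ± 0.21, FDR 0.00142 and −0.79 ± 0.20, FDR 0.00551) and was not called between paw and DRG (FDR 0.565). Without spinal cord 1 and 3 the call of Il18bp between DRG and spinal cord was lost (−0.49, FDR 0.126).

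Il33 encodes a nuclear alarmin that is set free from damaged cells and that glia make in the mouse central nervous system. It was the member with the most reads in spinal cord, 27.4% of all member reads there. It had 11.4, 11.8 and 14.5 CPM in paw, 26, 16.7 and 15.8 CPM in DRG and 150.4, 173 and 137 CPM in spinal cord. Spinal cord lay above both other tissues in every library, and DRG lay above paw without overlap. Il33 was lower in paw than in spinal cord (−3.61 ± 0.20, FDR 1.23e-08), lower in DRG than in spinal cord (−2.97 ± 0.19, FDR 1.74e-07) and lower in paw than in DRG (−0.63 ± 0.19, FDR 0.00944). The last call was lost with DRG 1 and 2, the libraries high in muscle markers, both left out (−0.34, FDR 0.131). Per kilobase of exon Il33 stood at 53.2 CPM in spinal cord, ahead of Il34 at 16.5 and Il18 at 15.5. All 4 astrocyte markers were called lower in DRG than in spinal cord, and 3 of 4 lower in paw than in spinal cord, the exception being Gja1, which skin also expresses. The oligodendrocyte sum (5 of 5 markers counted, none without reads in any tissue) was 52.3 to 66.1 CPM in paw, 758 to 1001 in DRG and 7061 to 7747 in spinal cord, and the part of cell numbers in the Il33 difference was not tested.

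**Figure D2:**
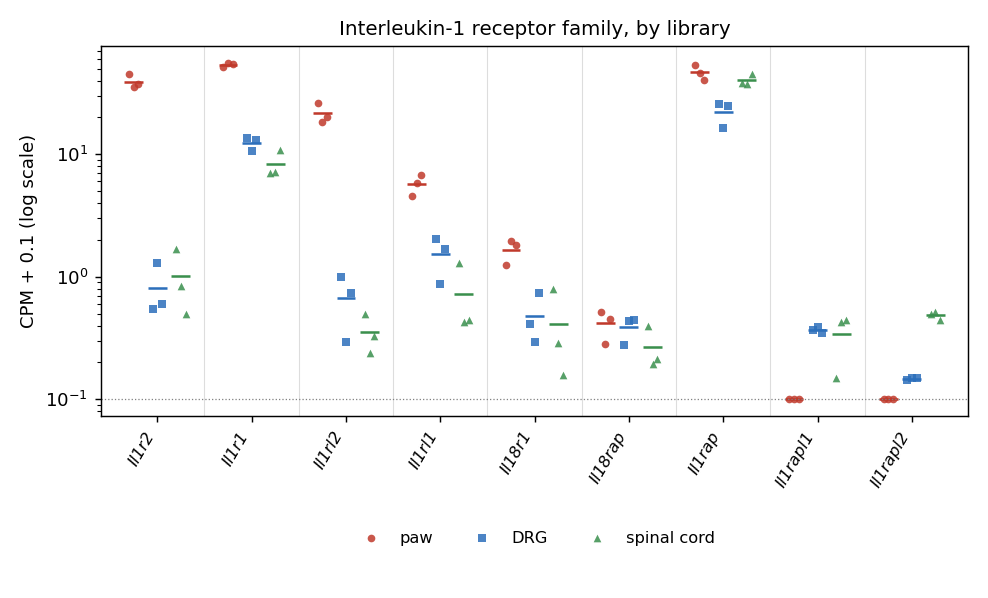
Levels of the interleukin-1 receptor family in each library, as CPM + 0.1 on a log axis, with paw, DRG and spinal cord from left to right for each gene and a bar at the mean of the 3 libraries. The first 6 genes follow their order on chromosome 1. Il1r2, Il1r1, Il1rl2 and Il1rl1 are highest in paw, Il1rap reaches similar levels in paw and spinal cord, and Il1rapl1 and Il1rapl2 have no read in paw.

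Most receptors of the family had their highest mean in paw, the exceptions being Il1rapl1 and Il1rapl2. Of 9 receptor genes 6 were tested. All 6 were called higher in paw than in DRG, where 39.7% of all tested genes were. Against spinal cord 5 were called higher in paw, where 39.9% of all tested genes were. These counts describe the tested genes only, because the filter lets in genes that are high in a single tissue. Il1r2, Il1rl2 and Il18r1 had means under 1 CPM in both DRG and spinal cord. The untested genes include Il1rapl1 and Il1rapl2, which had no read in paw. Il1r1, the signalling receptor of interleukin-1, had 51.4, 55.8 and 54.8 CPM in paw, 13.6, 10.5 and 12.9 CPM in DRG and 6.95, 7.04 and 10.8 CPM in spinal cord. It was higher in paw by 2.13 ± 0.16 (FDR 1.79e-07) than in DRG and by 2.71 ± 0.17 (FDR 2.62e-08) than in spinal cord. Its level was higher in DRG by 0.59 ± 0.17 (FDR 0.0106) than in spinal cord although a DRG and a spinal cord library overlapped, and this call was lost without spinal cord 2 (0.47, FDR 0.0638).

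Il1r2, the decoy receptor that binds interleukin-1 without signalling, had 44.8, 35.1 and 37.3 CPM in paw, 0.447, 1.21 and 0.495 CPM in DRG and 1.6, 0.746 and 0.402 CPM in spinal cord. All paw libraries lay far above the others. The difference was 5.76 ± 0.38 (FDR 1.4e-07) for paw against DRG and 5.38 ± 0.37 (FDR 1.85e-07) for paw against spinal cord. Per kilobase of exon the paw level was 20.5 CPM for the decoy Il1r2 and 8.48 CPM for Il1r1, whereas in DRG it was 0.375 and 1.94 CPM and in spinal cord 0.48 and 1.3 CPM. Il1rl2, the receptor of the interleukin-36 group, had 26.3, 18.3 and 20.1 CPM in paw, 0.894, 0.193 and 0.644 CPM in DRG and 0.40, 0.14 and 0.23 CPM in spinal cord, so ligands, antagonist and receptor of this branch were all highest in paw. This gene was higher in paw by 5.20 ± 0.35 (FDR 7.07e-08) than in DRG and by 6.37 ± 0.40 (FDR 3.44e-08) than in spinal cord. Il1rl1, the ST2 receptor of interleukin-33, was at 5.63 ± 1.15 CPM in paw, 1.43 ± 0.591 in DRG and 0.624 ± 0.50 in spinal cord. Expression was higher in paw by 1.97 ± 0.41 (FDR 0.000883) than in DRG and by 3.15 ± 0.46 (FDR 5.5e-05) than in spinal cord. The receptor thus had its highest mean in paw and its ligand Il33 in spinal cord. Il1rl1 was not called between DRG and spinal cord (FDR 0.0594). It was called in DESeq2 with all libraries (1.19, FDR 0.0399), without DRG 2 (1.49, FDR 0.0217) and without spinal cord 1 (2.08, FDR 0.00379). With spinal cord 1 and 3 both left out its difference was 2.13. Il1rl2 was called between DRG and spinal cord only without DRG 2 (1.58, FDR 0.0125), in DESeq2 (1.18, FDR 0.0456) and with the replicate block (1.14, FDR 0.0476).

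Il18r1, the ligand-binding chain for interleukin-18, was low, at 1.57 ± 0.378 CPM in paw, 0.383 ± 0.233 in DRG and 0.315 ± 0.34 in spinal cord. It was higher in paw by 2.02 ± 0.57 (FDR 0.00638) than in DRG and by 2.26 ± 0.59 (FDR 0.00401) than in spinal cord. Its partner Il18rap had 16 reads over paw, 18 over DRG and 10 over spinal cord and was not tested. Several paw differences grew without spinal cord 1, to 6.05 for Il1r2, 4.06 for Il1rl1 and 3.56 for Il18r1 against spinal cord. Without DRG 2 the Il1r2 difference between paw and DRG was 6.38. Without DRG 1 and 2 the Il18r1 call between paw and DRG was lost (1.26, FDR 0.189).

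Il1rap, the accessory chain that the receptors for interleukin-1, interleukin-33 and interleukin-36 share, was at 46.6 ± 6.22 CPM in paw, 22.2 ± 5.08 in DRG and 40.3 ± 4.3 in spinal cord. Its level was higher in paw by 1.07 ± 0.17 (FDR 0.000102) than in DRG and lower in DRG than in spinal cord (−0.86 ± 0.17, FDR 0.000993), with paw and spinal cord not told apart (FDR 0.25). The accessory-like genes Il1rapl1 and Il1rapl2, which act at synapses, had no read in paw. Il1rapl1 had 6, 6 and 5 reads in DRG and 1, 7 and 6 reads in spinal cord, and Il1rapl2 had 1, 1 and 1 reads in DRG and 8, 9 and 6 reads in spinal cord. Il1rapl2 had a ratio of spinal cord to DRG of 8.25 with a 95% counting interval of 2.49 to 42.9, without a test of the tissues. In the RefSeq order of GRCm38, Il1r2, Il1r1, Il1rl2, Il1rl1, Il18r1 and Il18rap follow each other on chromosome 1 with no other protein-coding gene between them.

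Keratinocyte markers were high in the same tissue as the interleukin-36 group, Il1a, Il1rn, Il18 and most receptors, but not as Il33 or Il18bp. All 6 were called higher in paw than in DRG and than in spinal cord, and none was without reads in any tissue. Other markers were high in paw too. All 6 skeletal muscle and all 5 macrophage markers were called higher there than in DRG and than in spinal cord. Against DRG so were 4 of 5 tested mast cell markers and 4 of 5 endothelial markers. The skeletal muscle sum was 13926, 15274 and 18362 CPM in paw 1 to 3. The part of the number of keratinocytes or of these other cells in the differences was not tested. The keratinocyte sum was 47791, 30668 and 33308 CPM in paw 1 to 3. Of the 18 family members with reads in paw, Il1f5, Il1f8, Il1rn, Il1a, Il1b, Il1r2, Il1rl2, Il18rap and Il1rap were highest in paw 1. Il1f10, Il18bp, Il33, Il1r1, Il1rl1 and Il18r1 were lowest there, and Il1f6, Il1f9 and Il18 neither.

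Genes that act in the same steps were taken from lists of relatives, signalling chains and cytokine processing. Of 12 genes of interleukin-1 receptor signalling, all tested, 9 were called higher and 1 lower in paw than in DRG, and likewise 9 and 1 in paw against spinal cord. Between DRG and spinal cord 3 were higher and 3 lower in DRG. Over all tested genes 80.5%, 81.6% and 59.6% were called in these comparisons, and the number called on the list in either direction is near that background. Of all tested genes 39.7% were higher in paw than in DRG and 39.9% higher in paw than in spinal cord. Whether the direction on the list differs from that of other genes was not tested. The largest differences in paw against DRG were those of the ubiquitin ligase Traf6 (2.66 ± 0.18) and the kinase Irak4 (1.87 ± 0.18), with Tollip, an inhibitor, as the lower gene (−0.41 ± 0.11). Against spinal cord they were those of Traf6 (2.53 ± 0.18) and the inhibitory Irak3 (2.39 ± 0.15), with Tab1 lower (−0.65 ± 0.12). Between DRG and spinal cord Irak3 (1.22 ± 0.15) and Tab2 (0.73 ± 0.17) were higher in DRG, and Irak2 (−1.22 ± 0.11) and Peli1 (−0.44 ± 0.10) lower.

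Of 13 genes of cytokine maturation 11 were tested, with 7 higher and 2 lower in paw than in DRG, 6 higher and 4 lower in paw than in spinal cord, and 1 higher and 3 lower in DRG than in spinal cord. The background was 80.5%, 81.6% and 59.6% called, as above. Pycard, the adaptor of inflammasomes, was at 163 ± 4.51 CPM in paw, 1.44 ± 0.255 in DRG and 2.4 ± 0.662 in spinal cord. This gene was higher in paw by 6.80 ± 0.19 than in DRG and by 6.09 ± 0.18 than in spinal cord, and lower in DRG than in spinal cord (−0.71 ± 0.21). Casp1, which cleaves the precursors of interleukin-1 beta and interleukin-18, was at 53 ± 2.6 CPM in paw, 6.97 ± 0.275 in DRG and 2.49 ± 0.0778 in spinal cord. Expression was higher in paw by 2.92 ± 0.10 and 4.41 ± 0.11 than in DRG and spinal cord, and higher in DRG by 1.48 ± 0.11 than in spinal cord. Casp8 was higher in paw by 3.20 ± 0.17 than in DRG. The sensor Nlrp3 was lower in paw than in DRG (−1.11 ± 0.44), as was the neutrophil protease gene Prtn3 in paw against DRG (−2.26 ± 0.93) and against spinal cord (−4.03 ± 0.81). The DNA sensor Aim2 was lower in DRG than in spinal cord (−2.57 ± 0.20), and so was Prtn3 (−1.77 ± 0.60). Elane, another neutrophil protease gene, had 1 read over paw and 146 over spinal cord. The spinal cord libraries spread widely, at 2.44 ± 3.35 CPM for Elane and 2.7 ± 2.22 for Prtn3. The call of Prtn3 in paw against DRG lay near the threshold (FDR 0.0433).

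**Figure D3:**
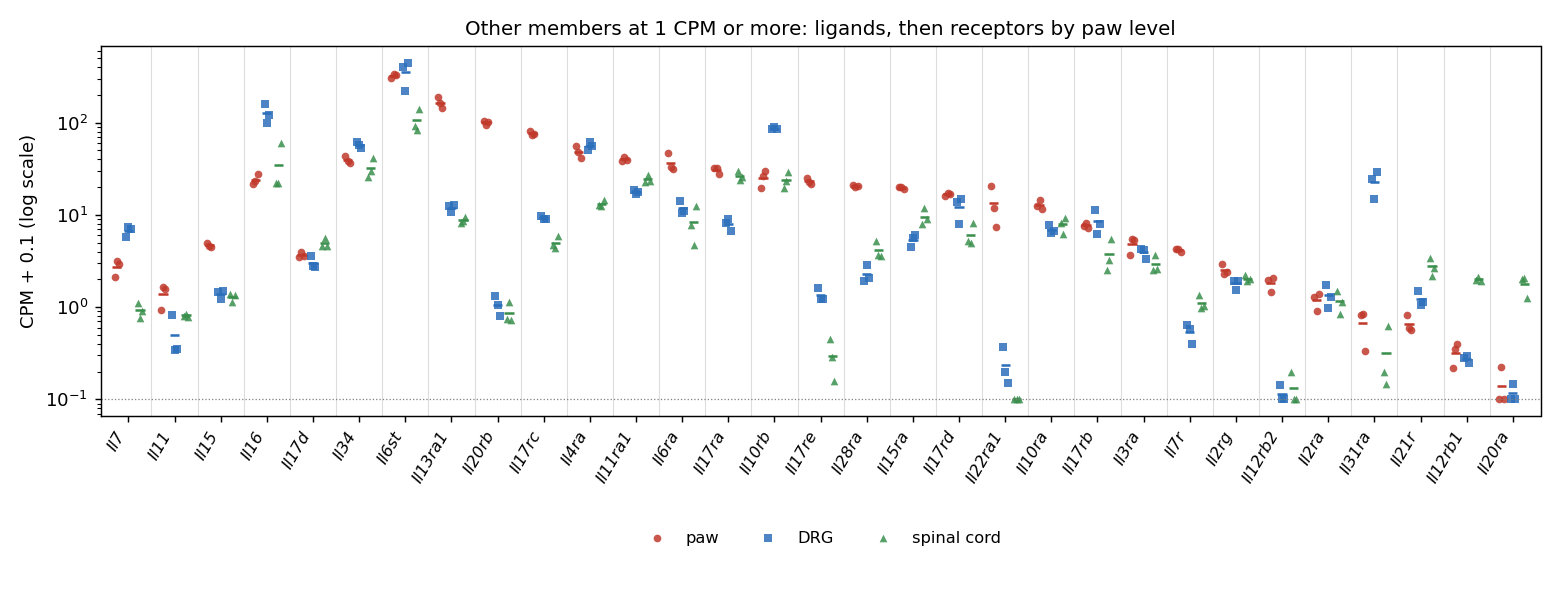
Levels of the members outside the interleukin-1 family that reached a mean of 1 CPM in at least 1 tissue, as CPM + 0.1 on a log axis, with paw, DRG and spinal cord from left to right for each gene and a bar at the mean of the 3 libraries. The ligands stand first and the receptors follow by falling paw level. Il20rb, Il17re and Il22ra1 stand out in paw, Il31ra, Il10rb, Il16 and Il7 in DRG, and Il20ra and Il12rb1 in spinal cord.

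Among the gp130 family, Il31ra marked the ganglia. It encodes the ligand-binding chain for interleukin-31, an itch cytokine of T cells, on sensory neurons. It had 12, 12 and 4 reads in paw, 24.6, 14.8 and 28.8 CPM in DRG and 2, 1 and 9 reads in spinal cord. All DRG libraries lay above all others. Its level was lower in paw than in DRG (−5.32 ± 0.46, FDR 1.47e-06) and higher in DRG by 6.74 ± 0.52 (FDR 1.68e-06) than in spinal cord. Of its spinal cord reads 9 of 12 were in library 3, where the fibroblast sum and that of satellite and Schwann glia (3161, 3543 and 6342 CPM in spinal cord 1 to 3) were highest and the astrocyte sum (3773, 3759 and 3452 CPM) and oligodendrocyte sum (7697, 7747 and 7061 CPM) lowest. Their part in the value was not tested, and without that library the difference was 8.18. Between paw and spinal cord it was not called (FDR 0.122), but was called without spinal cord 3 (2.88, FDR 0.0149). The 6 sensory neuron markers were all called lower in paw and higher in DRG in the comparisons with Il31ra, and the part of neuron number was not tested. Osmr, the second chain of the interleukin-31 receptor, was at 42 ± 1.47 CPM in paw, 58.3 ± 5.61 in DRG and 9.86 ± 0.844 in spinal cord, lower in paw than in DRG (−0.47 ± 0.10) and higher in DRG than in spinal cord (2.56 ± 0.11). The ligand Il31 had no read in any library, which does not show its absence.

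Il6st, the shared gp130 chain, had the most reads of all members in paw and in DRG, with 17.02% and 39.8% of the member reads. It had 301, 336 and 329 CPM in paw, 397, 218 and 445 CPM in DRG and 92.5, 82.2 and 142 CPM in spinal cord. DRG 2 lay well below DRG 1 and 3, and Il31ra and Il16 were lowest in the same library, which also had the highest marrow neutrophil and muscle sums. Their part in these values was not tested. Il6st was higher in paw and in DRG than in spinal cord (1.61 ± 0.28, FDR 0.000404 and 1.74 ± 0.28, FDR 0.00047), and paw and DRG were not told apart (FDR 0.658). In the RefSeq order of GRCm38, Il6st and Il31ra neighbour each other on chromosome 13. Il6ra, the interleukin-6 binding chain, was at 36.6 ± 8.28 CPM in paw, 11.8 ± 1.87 in DRG and 8.23 ± 3.96 in spinal cord and was higher in paw by 1.64 ± 0.31 (FDR 0.000727) than in DRG and by 2.17 ± 0.32 (FDR 0.000128) than in spinal cord. It was called between DRG and spinal cord only without spinal cord 3 (0.96, FDR 0.00844) or without spinal cord 1 and 3 (1.37, FDR 0.00505). Il11ra1, the interleukin-11 receptor, was at 40.00 ± 2.14 CPM in paw, 17.6 ± 0.693 in DRG and 24.4 ± 2.36 in spinal cord, higher in paw than in DRG and spinal cord (1.19 ± 0.10, FDR 4.42e-07 and 0.71 ± 0.10, FDR 3.3e-05) and lower in DRG than in spinal cord (−0.47 ± 0.10, FDR 0.0017). Its near-identical copy Il11ra2 had no read, and reads that align to both were not counted, so the level of Il11ra1 is uncertain.

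The ligands of this family were scarce. Il11 was at 1.28 ± 0.388 CPM in paw, 0.401 ± 0.272 in DRG and 0.712 ± 0.0305 in spinal cord, higher in paw by 1.64 ± 0.43 (FDR 0.00417) than in DRG, or 2.36 without DRG 1. It was not called in paw against spinal cord (FDR 0.0723) or in DRG against spinal cord (FDR 0.153). Without DRG 1 both were called (0.84, FDR 0.0364 and −1.52, FDR 0.0182), and so was paw against spinal cord without paw 1 (1.06, FDR 0.0389) and in the fit of those 2 tissues alone. Il6 had 12 reads over paw, 8 over DRG and 5 over spinal cord, and Il27 had 5 reads over paw, 5 over DRG and 7 over spinal cord. Neither passed the filter. Of the 22 relatives without an Il symbol, such as Lif, Osm and their receptors, 18 were tested, with 9 higher and 6 lower in paw than in DRG, 9 higher and 4 lower in paw than in spinal cord, and 7 higher and 6 lower in DRG than in spinal cord. The shares of all tested genes called in these comparisons were 80.5%, 81.6% and 59.6%. Lifr, the receptor for leukaemia inhibitory factor, had its highest level in DRG, at 95 ± 2.45 CPM in paw, 519 ± 39.2 in DRG and 108 ± 3.77 in spinal cord, and differed between DRG and spinal cord by 2.27 ± 0.09. Tslp, a keratinocyte cytokine, was higher in paw by 3.02 ± 0.41 than in DRG, and Cntfr, the ciliary neurotrophic factor receptor, was lower in paw than in DRG and spinal cord (−2.89 ± 0.20 and −3.79 ± 0.20). So was Csf3r, the granulocyte growth factor receptor (−2.90 ± 0.50 and −3.94 ± 0.49). Csf2rb2 was higher in paw by 2.16 ± 0.14 and 3.97 ± 0.16, values made uncertain by its near-identical copy Csf2rb.

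The interleukin-10 family was split by chain. Its ligands had few reads or none, and its receptor chains were highest in different tissues. Il10rb, the shared second chain, had 19.2, 26.4 and 30.04 CPM in paw, 84.5, 88.6 and 85.1 CPM in DRG and 19.4, 23.4 and 29.1 CPM in spinal cord. DRG lay above both other tissues in every library. Expression was lower in paw than in DRG (−1.77 ± 0.17, FDR 1.83e-06) and higher in DRG by 1.85 ± 0.17 (FDR 3.46e-06) than in spinal cord, and paw and spinal cord were not told apart (FDR 0.693). Il10ra, the interleukin-10 binding chain, was at 12.8 ± 1.51 CPM in paw, 6.8 ± 0.755 in DRG and 7.78 ± 1.48 in spinal cord and was higher in paw by 0.91 ± 0.17 (FDR 0.000399) than in DRG and by 0.72 ± 0.17 (FDR 0.002) than in spinal cord. Per kilobase of exon Il10rb stood at 6.62 CPM in paw, 22.6 in DRG and 6.29 in spinal cord, and Il10ra at 3.65, 1.94 and 2.22 CPM.

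Il20rb and Il22ra1, chains of the epidermal receptors for interleukin-20, interleukin-22 and interleukin-24, were paw genes. Il20rb had 105, 94.4 and 103 CPM in paw, 1.21, 0.965 and 0.693 CPM in DRG and 0.65, 1.03 and 0.631 CPM in spinal cord. It was higher in paw by 6.70 ± 0.18 (FDR 2.69e-11) than in DRG and by 7.00 ± 0.18 (FDR 2.31e-11) than in spinal cord. Il22ra1 had 20.4, 11.8 and 7.36 CPM in paw, with 6, 2 and 1 reads in DRG and 0 reads in all 3 spinal cord libraries. The paw libraries differed among themselves, with paw 1 highest and paw 3 lowest, and none overlapped with DRG. Its level was higher in paw by 6.47 ± 0.59 (FDR 9.87e-06) than in DRG and at least 258-fold higher than in spinal cord. Without DRG 1 the difference between paw and DRG was 7.36. Between DRG and spinal cord it was not called (FDR 0.0936), but was without paw 1 (FDR 0.0286), without paw 3 (FDR 0.0341) and in DESeq2. Il20ra, a chain that can pair with Il20rb, was found elsewhere. Il20ra had 0, 2 and 0 reads in paw, 0, 1 and 0 in DRG and 38, 42 and 20 in spinal cord. Its ratio of spinal cord to paw was 42.4 with a 95% counting interval of 11.4 to 355, and of spinal cord to DRG 108 with a 95% counting interval of 18.9 to 4290.1, both in the counting of reads only, and edgeR called it lower in paw and in DRG than in spinal cord (FDR 2.68e-05 and 2.46e-05). Il20ra and Il20rb were thus not high in the same tissue, whereas Il22ra1 and Il20rb were both highest in paw. Il22ra2, a secreted binding protein for interleukin-22, had 46 reads over paw, 14 over DRG and 1 over spinal cord. Il28ra, the receptor of the lambda interferons, was at 20.4 ± 0.528 CPM in paw, 2.19 ± 0.493 in DRG and 4.05 ± 0.958 in spinal cord, higher in paw by 3.22 ± 0.20 (FDR 2.8e-08) than in DRG and by 2.33 ± 0.19 (FDR 2.87e-07) than in spinal cord, and lower in DRG than in spinal cord (−0.89 ± 0.21, FDR 0.00318). In the RefSeq order of GRCm38, Il28ra (there Ifnlr1) and Il22ra1 are neighbours on chromosome 4, and Il22ra2 and Il20ra on chromosome 10. Among the ligands Il20, an epidermal cytokine, had 9, 7 and 18 reads in paw and no read elsewhere. It did not pass the filter and was not tested, and its counts put it at least 14.4-fold above DRG and at least 13.4-fold above spinal cord in paw by counting alone. Il19 had 2 reads over paw, 5 over DRG and 3 over spinal cord, Il10 and Il24 had 1 read each, in paw, and Il22, Il28a and Il28b had none.

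In the interleukin-17 family every receptor chain had more reads than any ligand in paw, but not in the other tissues. Over spinal cord the ligand Il17d had 285 reads, as many as Il17rc and more than Il17rb (210) and Il17re (12). Over DRG it had 185 reads and Il17re 80. Il17rc, which pairs with Il17ra to bind the interleukin-17A and interleukin-17F proteins, had 80.2, 74.1 and 74.7 CPM in paw, 9.52, 8.93 and 8.96 CPM in DRG and 4.6, 4.25 and 5.86 CPM in spinal cord. This gene was higher in paw by 3.06 ± 0.12 (FDR 4.21e-10) than in DRG and by 3.97 ± 0.13 (FDR 8.08e-11) than in spinal cord, and higher in DRG by 0.91 ± 0.13 (FDR 7.75e-05) than in spinal cord. Il17re, the receptor of the epithelial cytokine interleukin-17C, had 25.2, 22.8 and 21.3 CPM in paw, 1.52, 1.11 and 1.14 CPM in DRG and 0.35, 0.187 and 0.0574 CPM in spinal cord, separate in every library. Expression was higher in paw by 4.19 ± 0.23 (FDR 8.16e-09) than in DRG and by 6.78 ± 0.29 (FDR 1.06e-09) than in spinal cord, and higher in DRG by 2.59 ± 0.37 (FDR 0.000104) than in spinal cord. Without spinal cord 1 its differences from spinal cord were 7.44 for paw and 3.24 for DRG. Il17re and Il17rc neighbour each other on chromosome 6 in the RefSeq order of GRCm38.

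Il17ra, the shared chain, was lowest in DRG. It had 32.2, 31.8 and 27.4 CPM in paw, 8.09, 9.03 and 6.64 CPM in DRG and 30.1, 23.7 and 25.6 CPM in spinal cord. It was higher in paw by 1.94 ± 0.14 (FDR 1.2e-07) than in DRG and lower in DRG than in spinal cord (−1.74 ± 0.14, FDR 9.56e-07), and paw and spinal cord were not told apart (FDR 0.174). Il17rb, a receptor for interleukin-25, was at 7.57 ± 0.509 CPM in paw, 8.37 ± 2.69 in DRG and 3.65 ± 1.5 in spinal cord, higher in paw and in DRG than in spinal cord (1.06 ± 0.29, FDR 0.00573 and 1.21 ± 0.29, FDR 0.00383) and not called between paw and DRG (FDR 0.633). Il17rd, known as an inhibitor of fibroblast growth factor signalling, was at 16.6 ± 0.774 CPM in paw, 12.2 ± 3.73 in DRG and 5.98 ± 1.74 in spinal cord and likewise higher in paw and in DRG than in spinal cord (1.48 ± 0.25, FDR 0.000168 and 1.03 ± 0.25, FDR 0.00373), with DRG 2 at 7.92 CPM inside the spinal cord range. Between paw and DRG it was called only with upper quartile factors (0.57, FDR 0.0442) and the replicate block (0.49, FDR 0.048). Il17d was the only ligand over 1 CPM, at 3.57 ± 0.223 CPM in paw, 2.91 ± 0.463 in DRG and 4.82 ± 0.559 in spinal cord. It was lower in DRG than in spinal cord (−0.73 ± 0.18, FDR 0.0051). Its call in paw against spinal cord (−0.43 ± 0.18, FDR 0.0468) was lost in 15 of 18 alternatives, among them leaving out any of paw 1, paw 2, paw 3, DRG 2, DRG 3, spinal cord 1, 2 or 3 (FDR up to 0.175). Il25 had 1 read over paw, 53 over DRG and 18 over spinal cord, and Il17b 24 reads over paw, 29 over DRG and 7 over spinal cord. Il17a had no read in any library while Il17c had 5 reads over paw, 1 over DRG and 2 over spinal cord, and Il17f 3 reads over paw, 2 over DRG and 1 over spinal cord.

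The common gamma chain family gave Il7 in the ganglia. Il7, a survival factor for lymphocytes that stromal cells make, had 2.04, 3.02 and 2.83 CPM in paw, 5.63, 7.29 and 6.88 CPM in DRG and 1.0, 0.653 and 0.804 CPM in spinal cord. The tissues did not overlap. Its level was lower in paw than in DRG (−1.33 ± 0.21, FDR 0.000127), higher in paw by 1.68 ± 0.26 (FDR 8.2e-05) than in spinal cord and higher in DRG by 3.00 ± 0.24 (FDR 9.39e-07) than in spinal cord. Its receptor Il7r had the opposite place for DRG, at 4.03 ± 0.176 CPM in paw, 0.439 ± 0.125 in DRG and 1.02 ± 0.202 in spinal cord, higher in paw by 3.17 ± 0.28 (FDR 5.86e-07) than in DRG and by 1.98 ± 0.25 (FDR 1.48e-05) than in spinal cord, and lower in DRG than in spinal cord (−1.20 ± 0.31, FDR 0.00551, and −0.98, FDR 0.0785 without spinal cord 1 and 3).

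Il4ra, the receptor of interleukin-4 and, with Il13ra1, of interleukin-13, was shared by paw and DRG. It had 55.7, 48.4 and 40.8 CPM in paw, 50.2, 61.4 and 56.3 CPM in DRG and 12.7, 12.5 and 14.3 CPM in spinal cord. Its level was higher in paw and in DRG than in spinal cord (1.88 ± 0.13, FDR 8.33e-08 and 2.09 ± 0.13, FDR 1.23e-07). Paw and DRG overlapped and were not told apart (FDR 0.135), but without paw 1 it was called lower in paw (−0.34, FDR 0.0276). Il13ra1 was highest in paw instead, with 189.6, 161 and 144 CPM in paw, 12.3, 10.7 and 12.7 CPM in DRG and 8.0, 8.49 and 9.41 CPM in spinal cord. This gene was higher in paw by 3.80 ± 0.13 (FDR 1.74e-10) than in DRG and by 4.26 ± 0.14 (FDR 8.15e-11) than in spinal cord, and higher in DRG by 0.46 ± 0.13 (FDR 0.00938) than in spinal cord. The last call was lost without spinal cord 1 and 3 (0.50, FDR 0.0673). Per kilobase of exon Il13ra1 stood at 44.5 CPM in paw and 3.2 in DRG, and Il4ra at 8.05 and 9.33 CPM. The ligand Il4 had 1 read over paw, 1 over DRG and 1 over spinal cord, and Il13 had 1 read over paw, 0 over DRG and 0 over spinal cord.

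Il15, a cytokine that its own receptor chain presents to lymphocytes, was at 4.59 ± 0.276 CPM in paw, 1.28 ± 0.148 in DRG and 1.2 ± 0.149 in spinal cord, and the receptor Il15ra at 19.5 ± 0.542 CPM in paw, 5.29 ± 0.813 in DRG and 9.47 ± 1.91 in spinal cord. Both were higher in paw than in DRG (1.84 ± 0.21, FDR 5.76e-06 and 1.89 ± 0.17, FDR 7.25e-07) and than in spinal cord (1.94 ± 0.21, FDR 3.96e-06 and 1.04 ± 0.16, FDR 8.5e-05). Between DRG and spinal cord Il15 was not called (FDR 0.729) and Il15ra was lower in DRG (−0.84 ± 0.17, FDR 0.00116). Il21r, a receptor of lymphoid cells, was highest in spinal cord, at 0.561 ± 0.137 CPM in paw, 1.13 ± 0.224 in DRG and 2.66 ± 0.605 in spinal cord. Expression was lower in paw and in DRG than in spinal cord (−2.23 ± 0.31, FDR 3.35e-05 and −1.23 ± 0.27, FDR 0.00227). Its call as lower in paw than in DRG (−1.01 ± 0.33, FDR 0.0148) was lost without paw 2 (−0.91, FDR 0.0539), paw 3 (−0.89, FDR 0.0531), DRG 1 (−0.83, FDR 0.0598) or both DRG 1 and 2 (−0.89, FDR 0.123). With spinal cord 1 and 3 left out its call between DRG and spinal cord was lost (−0.87, FDR 0.0788). Il2ra and Il2rg were called in no comparison, at 1.1 ± 0.261 CPM in paw, 1.24 ± 0.395 in DRG and 1.06 ± 0.328 in spinal cord for Il2ra and 2.42 ± 0.345 CPM in paw, 1.7 ± 0.222 in DRG and 1.94 ± 0.146 in spinal cord for Il2rg. Il2rg in paw against DRG (0.51 ± 0.22, FDR 0.0527) was called without spinal cord 2 (0.54, FDR 0.0442) and with upper quartile and RLE factors. T cell markers were low in all tissues, with a sum over 6 markers of 1.85 to 3.0 CPM in paw, 2.28 to 3.07 in DRG and 1.59 to 3.0 in spinal cord.

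In the interleukin-12 family both receptor chains were found, but in different tissues. Il12rb1, shared by interleukin-12 and interleukin-23, had 2, 4 and 5 reads in paw, 4, 4 and 3 reads in DRG and 37, 43 and 32 reads in spinal cord. It was lower in paw and in DRG than in spinal cord (−3.07 ± 0.34, FDR 5.13e-06 and −3.40 ± 0.34, FDR 5.34e-06) and not called between paw and DRG (FDR 0.608). Il12rb2, the second chain for interleukin-12, had 31, 22 and 33 reads in paw, 1, 0 and 0 reads in DRG and 2, 0 and 0 reads in spinal cord. Its ratio of paw to DRG was 109 with a 95% counting interval of 19.1 to 4359, and of paw to spinal cord 50.7 with a 95% counting interval of 13.6 to 426. Il12a had 26 reads over paw, 13 over DRG and 15 over spinal cord, Il23a had 7 reads over paw, 12 over DRG and 7 over spinal cord and Il12b had no read. Il3ra, the alpha chain for interleukin-3, was at 4.72 ± 1.03 CPM in paw, 3.83 ± 0.526 in DRG and 2.82 ± 0.627 in spinal cord and was higher in paw by 0.73 ± 0.23 (FDR 0.0123) than in spinal cord, with overlap between the tissues and the call lost without spinal cord 1 and 3 (0.43, FDR 0.223). Il5 had 3 reads over paw, 31 over DRG and 7 over spinal cord and Il5ra 1 read over paw, 27 over DRG and 5 over spinal cord, and neither was tested.

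Il16 and Il34, ligands outside these families, were highest in DRG. Il16 gives rise to a secreted ligand of CD4, and neurons make a longer form. It had 21.7, 23 and 27.3 CPM in paw, 157, 99.8 and 120.1 CPM in DRG and 22, 22 and 60.6 CPM in spinal cord. DRG lay above the other tissues in every library, and spinal cord 3 lay apart from spinal cord 1 and 2. Its level was lower in paw than in DRG (−2.39 ± 0.41, FDR 0.000767) and higher in DRG by 1.86 ± 0.40 (FDR 0.00444) than in spinal cord, or 2.53 without spinal cord 3. Paw and spinal cord were not told apart (FDR 0.254). Cd4 itself had 55 reads over paw, 52 over DRG and 13 over spinal cord.

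Il34, a ligand of the macrophage growth factor receptor that maintains microglia and Langerhans cells, had 43.8, 38.6 and 36.2 CPM in paw, 62.1, 57.3 and 52.9 CPM in DRG and 25.8, 29.9 and 41.1 CPM in spinal cord. Expression was lower in paw than in DRG (−0.54 ± 0.15, FDR 0.00709) and higher in DRG by 0.83 ± 0.16 (FDR 0.000701) than in spinal cord. The difference between paw and DRG was not called without DRG 1 and 2 (−0.43, FDR 0.121). Paw and spinal cord overlapped (FDR 0.0996) and were called only without spinal cord 3 (0.54, FDR 0.00196), without spinal cord 1 and 3 and with upper quartile scaling. Its receptor Csf1r was at 96 ± 5.24 CPM in paw, 34.8 ± 7.56 in DRG and 111 ± 2.49 in spinal cord, lower in DRG than in spinal cord (−1.67 ± 0.13) and higher in paw than in DRG (1.46 ± 0.13), so the tissue with the highest ligand level had the lowest receptor level.

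**Figure D4:**
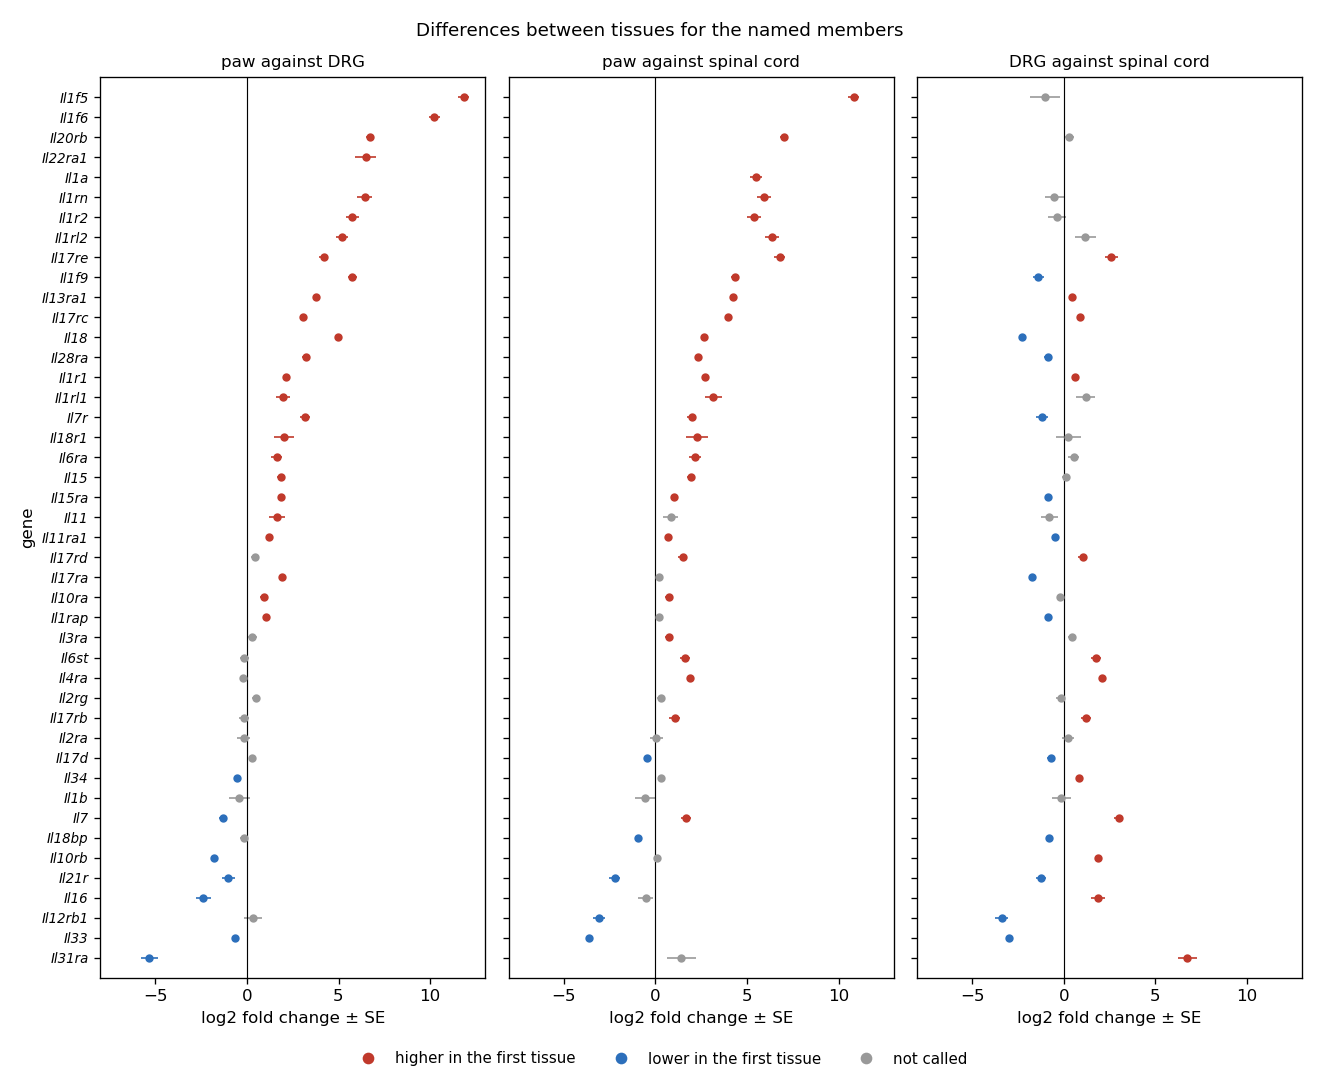
Log2 fold changes ± SE of the named members in the 3 comparisons, for pairs of tissues with more than 3 reads each. Red points were called higher and blue points lower in the first tissue of the comparison, and grey points were not called. Most of the largest paw differences belong to the interleukin-1 family, and Il31ra has the lowest value in paw against DRG and the highest in DRG against spinal cord, without the genes left out for low reads.

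The kinases and transcription factors that act after the receptors outside the interleukin-1 family were counted from a list of 15 genes, of which 14 were tested. In paw against DRG 6 were higher and 4 lower, in paw against spinal cord 11 higher and 2 lower, and in DRG against spinal cord 10 were called, all higher in DRG. Of all tested genes 80.5%, 81.6% and 59.6% were called in these comparisons, and 29.0% were higher in DRG than in spinal cord. Stat6, which acts after Il4ra and Il13ra1, was at 144 ± 9.2 CPM in paw, 179 ± 5.58 in DRG and 29.7 ± 10.1 in spinal cord and differed between DRG and spinal cord by 2.59 ± 0.20, and Socs2 by 2.32 ± 0.18. Stat5a was higher in paw than in DRG and spinal cord (1.68 ± 0.12 and 2.51 ± 0.13), as were Socs1 against DRG (1.27 ± 0.32) and Socs3 against spinal cord (2.55 ± 0.16). Stat2, which acts after interferon receptors, was lower in paw than in DRG (−1.97 ± 0.14) and than in spinal cord (−0.54 ± 0.13).

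The members not named above were scarce. Il2rb, a chain of the interleukin-2 and interleukin-15 receptors, had 15 reads over paw, 44 over DRG and 39 over spinal cord. Il27ra had 17 reads over paw, 41 over DRG and 37 over spinal cord, and the decoy Il13ra2 28 reads over paw, 13 over DRG and 8 over spinal cord. Il23r had 12 reads over paw, 0 over DRG and 0 over spinal cord, and Il9r 2 reads over paw, 11 over DRG and 3 over spinal cord. The ligand Il21 had 0 reads over paw, 6 over DRG and 5 over spinal cord, and Il2 2 reads over paw, 1 over DRG and 2 over spinal cord. All were under 1 CPM in every tissue. No read was counted for Il3, Il9, Il11ra2, Il12b, Il17a, Il22, Il28a, Il28b, Il31 or Il4i1. For genes with near-identical copies such as Il28a and Il28b, reads that align to several places were not counted, so a 0 does not show absence.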

How the data were processed

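RNA from paw, DRG and spinal cord (3 libraries each) was made into stranded poly-A libraries and read as 50 bp single ends, per the labels' protocols. The build was mm9 and the tools were bcl2fastq, HTSeq and TopHat2, per the submitters' processing notes. Tool versions, annotation and strand option were not given in the sources used here, which leaves overlapping or antisense genes uncertain. Each deposited file holds whole-number read counts for 22609 gene symbols, with 5 summary rows that stayed out of library sizes and tests and held 42.9 to 59.3% of a file, mostly reads with several alignments. Libraries of 1 tissue differed beyond sampling noise (chi-square per degree of freedom 7.55 to 38.4).

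All 9 libraries entered 1 fit with tissue as factor in edgeR 4.0.16 (R 4.3.3): filterByExpr by tissue, TMM, glmQLFit (robust) and glmQLFTest, with Benjamini-Hochberg adjustment over 16091 genes. A standard error is the fold change divided by the square root of F. The functions were tested on simulated counts. No fold is given where both tissues have 3 reads or fewer; against 0 reads it is a bound from 3 reads over the tissue, and against 1 to 3 reads a ratio with an exact 95% interval, both covering counting error only. Alternatives were upper quartile and RLE factors, no filter, DESeq2 1.42.0, limma-voom (limma 3.58.1), the replicate number as a block, 9 fits without 1 library, 2 fits without 2 libraries, and fits of the compared tissues alone. Exon lengths came from GENCODE M21 (GRCm38), another build than mm9, and serve only to compare genes.

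Named members are the interleukin-1 family and all others at 1 CPM or more in a tissue. Of the pathway lists, up to 2 called genes per direction and comparison are named; levels and further comparisons of Csf1r, Cd4, Casp1, Pycard and Osmr were added as partners, and Elane for its reads, after their values were seen. Some genes that this rule names are not reported here. Families follow textbook grouping. The members, lists and tests were chosen with earlier results of these data known.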

Additional observations from a re-analysis of the deposited data

How the results depend on the processing

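Of 140 results on single members, 100 kept their direction and their side of the threshold under every alternative run, 12 lost the call under at least 1, 13 gained it, and 17 changed direction under at least 1. Those that changed direction were not called with all libraries, nor in the alternatives where their direction changed. Over the fits that left out 1 library, the log2 fold change ranged, in paw against DRG, from −0.32 to 0.13 for Il17rb, −1.25 to 0.01 for Il1b, −0.35 to 0.094 for Il2ra and −0.37 to 0.062 for Il6st. In paw against spinal cord it ranged from −0.069 to 0.27 for Il10rb, −0.77 to 0.17 for Il16 and −0.13 to 0.34 for Il2ra, and in DRG against spinal cord from −0.013 to 0.20 for Il15, −0.32 to 1.53 for Il18r1, −0.47 to 0.22 for Il1b, −1.60 to 0.21 for Il1f5, −0.97 to 0.28 for Il1r2, −0.99 to 0.26 for Il1rn and −0.038 to 0.50 for Il2ra. Without DRG 1 and 2 the value was 0.0092 for Il18bp in paw against DRG and −0.16 for Il20rb in DRG against spinal cord. Without spinal cord 1 and 3 it was 0.15 for Il16 in paw against spinal cord, and 0.16 for Il10ra, 0.13 for Il1b, 1.22 for Il1rn and −0.078 for Il20rb in DRG against spinal cord. The number of members called lower in paw than in DRG was 4 without DRG 1 and 2, where DRG rests on a lone library assumed to vary like the others. Over all alternatives, 30 to 33 members were higher and 4 to 12 lower in paw than in DRG, 34 to 38 higher and 5 to 8 lower in paw than in spinal cord, and 13 to 18 higher and 12 to 16 lower in DRG than in spinal cord. Upper quartile factors moved the median of all genes in paw against DRG by 0.12 on the log2 scale.

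The titles number the libraries 1 to 3 in each tissue. Same-numbered libraries correlated in their deviations from the tissue means at −0.22 to 0.37, and differently numbered ones at −0.56 to 0.47. No pairing by number was seen across all tissues, but with 3 libraries per tissue such a check can hardly show it. Whether equal numbers mark the same mice is not known. With the replicate number as a block, 31 members were higher and 9 lower in paw than in DRG, 34 and 6 in paw against spinal cord, and 18 and 15 in DRG against spinal cord. The block ended the call of Il17d in paw against spinal cord and brought calls for Il17rd in paw against DRG and for Il1rl2 and Il22ra1 in DRG against spinal cord. Members under about 10 reads in a tissue are limited by depth.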
